A study of Mus musculus with 15 samples.

Results

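The lysosome gene set described here holds 52 genes of 53546 in the deposited count table of dural macrophages. They were chosen by name, as the best known acid hydrolases, membrane proteins, regulators and proton pump subunits of lysosomes. Earlier results of these data were known when they were chosen. All 52 were in the table and passed the filter on low counts. The libraries were bulk RNA-seq of CD206-positive cells sorted from the dura mater of untreated C57BL/6J mice, all of genotype Cx3cr1GFP/wt, so that every group carried 1 GFP allele of the fractalkine receptor gene. There were 3 libraries at each of 5 ages: the embryonic stage E14.5, and P3, P10, P21 and P56, where P stands for days after birth. Per the series text the cells came from 3 to 5 mice per age, and the labels do not say whether each library was 1 animal, so p-values measure the spread between these libraries, which may be partly technical.

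Lysosomes are the acidic organelles in which macrophages break down what they engulf. A rotary proton pump, the V-ATPase, acidifies the lumen, with a V1 sector in the cytosol that hydrolyses ATP and a V0 sector in the membrane that carries the protons. Cathepsins cut proteins, glycosidases and sulfatases take apart sugar chains, lipases and sphingolipid enzymes handle membranes, and the transcription factors TFEB and TFE3 switch on many of these genes through an E-box motif in their promoters.

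The marker genes fitted a macrophage sort: 8 macrophage genes, among them Mrc1 (which encodes CD206), summed to between 10100 and 17800 CPM of the total (reads scaled to one fixed total count per library). Total counts ran between 17550170 and 30614583 per library, and P21 replicate 2 stood apart in a principal component analysis of all genes and had the fewest genes with at least 10 counts (11254). All P56 libraries came from one sequencing project and all other libraries from another, so that age and project cannot be told apart at P56. E14.5 replicates 1 and 2 carried Xist (80.2 and 57.6 CPM of the total) and almost no Y-linked counts (1.31 and 3.77 CPM of the total). The other 13 libraries had 132 to 220 CPM of Y-linked counts. The libraries of E14.5 thus differed among themselves in these genes and those of other ages did not. Any comparison with E14.5 therefore partly mixes age with this difference. The fits given below with E14.5 replicate 3 as the only E14.5 library leave out replicates 1 and 2. The members Atp6ap1, Atp6ap2, Gla, Ids, Lamp2 and Tfe3 lie on the X chromosome. Unless said otherwise, a level is CPM scaled by TMM, that is, after edgeR's TMM factors, which align libraries on the bulk of their genes. A gene was called higher or lower when its Benjamini-Hochberg adjusted p, over all genes tested in edgeR's quasi-likelihood test, was under 0.05.

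The lysosome genes took a larger share of the reads at each later age than at E14.5. Together they made up 4.65% to 4.783% of all counts at E14.5, 5.61% to 6.142% at P3, 5.867% to 6.41% at P10, 6.135% to 6.333% at P21 and 7.021% to 7.746% at P56. No library of a later age overlapped the E14.5 libraries. In bulk samples, fewer cells of a type and less RNA per cell cannot be told apart. In CPM of the total, the members together averaged 47364 at E14.5, 58360 at P3 and 72833 at P56 (n = 3 each). Lyz2 alone averaged 1968, 4590 and 19250 at these ages. Lyz2 was thus the smaller part of the rise from E14.5 to P3 and the larger part of that to P56. By role, the summed CPM of the total averaged 17158 ± 332 at E14.5, 22458 ± 824 at P21 and 24160 ± 588 at P56 for the papain-like cathepsins (SD, n = 3 each). The sums of the V1 sector of the proton pump were 2046 to 2366 at E14.5, 2140 to 2289 at P3, 2067 to 2562 at P10, 1571 to 1605 at P21 and 1312 to 1426 at P56, in CPM of the total. The V1 sums overlapped from E14.5 to P10 and were lower at P21 and P56.

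**Figure D1:**
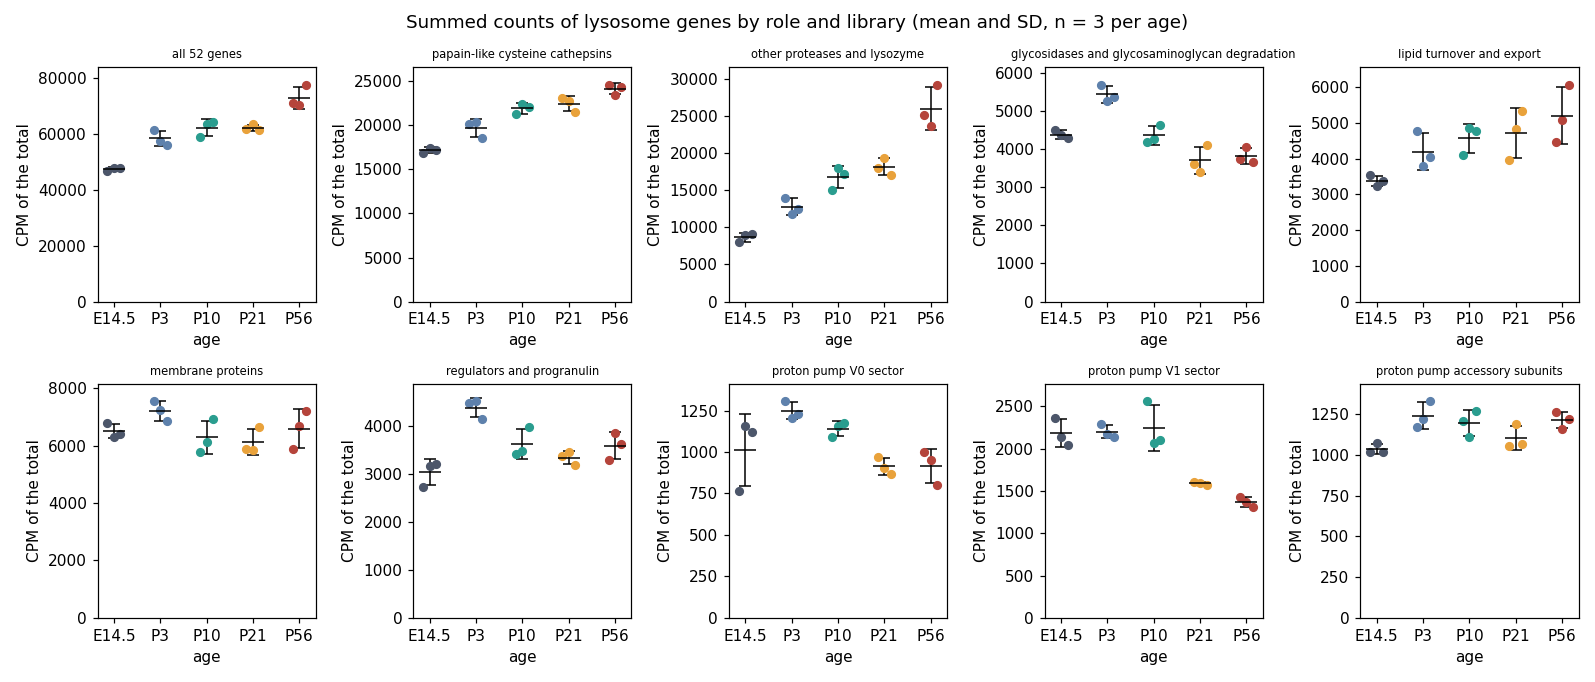
Summed CPM of the total (y axis from 0) of all 52 lysosome genes and of each of 9 roles by age (x axis). Each point is 1 library, and the bar and whiskers are mean and SD (n = 3 per age). The cathepsin and lysozyme panels are lowest at E14.5 and highest at P56, the glycosidase panel is highest at P3, and the V1 panel is lowest at P56.

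A single F-test asked which members differed at all among E14.5, P3, P10 and P21, using the 12 libraries that share one project. It called 23 of 52 members, against 12.3% of all 14287 genes tested. The members were deeply counted, with a median mean count of 10246 against 347 for all tested genes, and all 52 lay above that median. The call rate of equally deep genes was not computed. Of the 23 called members, 12 had their highest mean at P21, 7 at P10, 3 at P3 and 1 at E14.5. On the first principal component of the members' own log2 levels, which held 64.5% of their variance, the ages stood in order without overlap: −3.85 to −3.74 at E14.5, −1.72 to −1.39 at P3, −0.17 to 0.63 at P10, 1.6 to 1.96 at P21 and 2.96 to 3.85 at P56. With E14.5 replicate 3 as the only E14.5 library, a setting chosen after seeing the data, 9 members were called in this test, against 2.93% of all genes: Ctsc, Ctsf, Ctsh, Ctss, Lyz2, Hgsnat, Npc2, Asah1 and Atp6v1d. Without 1 library, 7 of the 23 calls could end, those of Ctsa, Ids, Naglu, Lamp2, Cd68, Atp6v0b and Atp6v1e1, and E14.5 replicates 2 and 3 were such libraries for all 7 (adjusted p 0.0515 to 0.152).

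**Figure D2:**
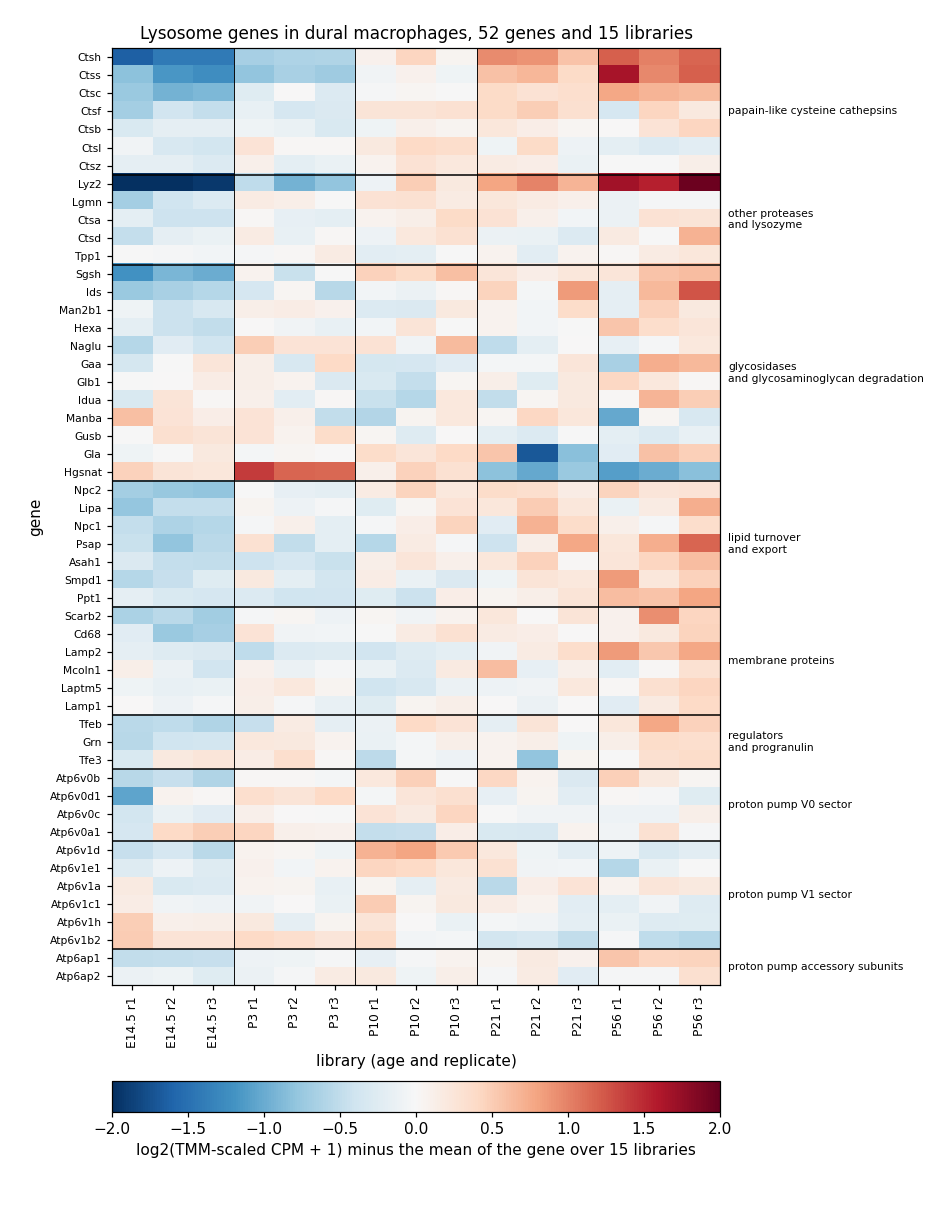
Heat map of the 52 lysosome genes (rows, grouped by role) in 15 libraries (columns, by age). Colour is log2(TMM-scaled CPM + 1) minus the mean of the gene over all libraries, and values beyond −2 and 2 take the end colours. Ctsh, Ctss, Ctsc and Lyz2 run from blue at E14.5 to red at P56, while Hgsnat is reddest at P3 and bluest at P21 and P56.

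Promoter windows were read for 44 of the members, from 250 bases before to 50 after the gene start (RefSeq, GRCm38.p6). The E-box core CACGTG, which reads the same on both strands, was present in 15 of 44 member promoters (34.1%), against 8.09% of 27025 genes with such windows. Its longer form CACGTGAC, or GTCACGTG on the other strand, contains that core and was present in 11 of 44 (25.0%), against 2.55% of all genes. This is the form through which TFEB and TFE3 are known to bind lysosome genes. The 11 were Atp6v0b, Atp6v0d1, Ctsa, Ctsd, Gla, Glb1, Lamp1, Lgmn, Mcoln1, Naglu and Sgsh. Stretches of 60 bases are shown for Ctsa, Lgmn, Sgsh and Atp6v0b, which were called higher at P21 than at E14.5, and for Lamp1 and Mcoln1, which were not called in any comparison. They lie at chr2:164833738-164833797 (plus strand) for Ctsa, chr12:102439124-102439183 (minus strand) for Lgmn and chr11:119355520-119355579 (minus strand) for Sgsh. The others are chr4:117887348-117887407 (minus strand) for Atp6v0b, chr8:13159093-13159152 (plus strand) for Lamp1 and chr8:3500434-3500493 (plus strand) for Mcoln1. All are written in the direction of the gene, with the longer form in capitals.
Ctsa: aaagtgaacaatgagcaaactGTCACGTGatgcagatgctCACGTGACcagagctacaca
Lgmn: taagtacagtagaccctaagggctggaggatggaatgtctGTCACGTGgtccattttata
Sgsh: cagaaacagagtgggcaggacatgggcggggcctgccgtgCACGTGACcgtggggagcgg
Atp6v0b: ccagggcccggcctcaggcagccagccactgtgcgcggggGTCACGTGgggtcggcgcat
Lamp1: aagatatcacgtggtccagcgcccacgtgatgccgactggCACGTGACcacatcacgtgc
Mcoln1: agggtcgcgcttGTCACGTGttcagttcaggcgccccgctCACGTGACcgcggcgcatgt

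At P21 against E14.5, 4 of the 11 members with the longer form and 13 of the 33 without it were called higher. Of all genes, 7.81% were called higher there. The stretches of Ctsa and Mcoln1 hold 2 copies each. Of the transcription factors themselves, Tfeb had the lowest level per kilobase of exon of all 52 members when averaged over the 15 libraries. Tfeb had 19.7, 20 and 18.7 CPM at E14.5, 20.8, 32.5 and 25.4 at P3, 26.5, 38.6 and 35.3 at P10, 25.6, 34.8 and 29.1 at P21, and 34.2, 50.2 and 40.2 at P56. All P21 libraries lay above all E14.5 libraries for Tfeb, but neither that comparison (log2 change 0.62 ± 0.24 SE, adjusted p = 0.123) nor the test of any difference (adjusted p = 0.183) passed. Tfe3 had 120 ± 36.4 CPM at P21 and 141 ± 28.5 at E14.5 (SD, n = 3 each) and was called nowhere.

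A second motif, GAGGAAGT or ACTTCCTC on the other strand, holds the GGAA core bound by ETS family factors such as PU.1, the factor that sets macrophage identity. It was present in 4 of 44 member promoters (9.09%), against 3.69% of all genes. The stretches of Ctsc, at chr7:88277894-88277953 (plus strand), and Ctss, at chr3:95526744-95526803 (plus strand), are shown because both genes were called higher at P21 than at E14.5, and the motif is in capitals. The other two, Gla and Gusb, were not called (log2 changes −0.42 and −0.35), and 15 of the 40 members without the motif were called higher.
Ctsc: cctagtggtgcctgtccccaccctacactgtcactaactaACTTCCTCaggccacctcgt
Ctss: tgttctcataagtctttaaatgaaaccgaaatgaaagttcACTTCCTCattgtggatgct

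The papain-like cysteine cathepsins were the role with the most calls. At P21 against E14.5, 5 of the 7 were higher, against 7.81% of all genes. All 7 log2 changes were positive, and the median log2 change was 0.91, or 0.60 without a scaling factor. Ctsh, an aminopeptidase, had 259, 301 and 300 CPM at E14.5, 507, 523 and 533 at P3, 852, 1082 and 838 at P10, 1555, 1508 and 1194 at P21, and 1836, 1614 and 1812 at P56. No age overlapped the next for Ctsh. It was called at 3 successive steps and averaged 1419 CPM at P21 against 287 at E14.5 (log2 change 2.31 ± 0.13 SE, adjusted p = 1e-07). Ctss, which trims the invariant chain of MHC class II, had 1068, 842 and 798 CPM at E14.5, 1091, 1205 and 1151 at P3, 1792, 1995 and 1777 at P10, 2814, 2997 and 2454 at P21, and 5874, 3666 and 4301 at P56. Its groups did not overlap either, with the narrowest gap between P3 and E14.5, and no single step was called, but P21 exceeded E14.5 by a log2 change of 1.61 ± 0.16 (SE, adjusted p = 1.9e-05). Ctsc, a dipeptidyl peptidase that activates granule proteases, had 2770, 2389 and 2486 CPM at E14.5, 3928, 4655 and 3819 at P3, 4554, 4773 and 4602 at P10, 6018, 5621 and 5819 at P21, and 7881, 7379 and 7136 at P56. P3 and P10 overlapped for Ctsc, and the other neighbouring ages did not.

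Ctsf had 147, 181 and 168 CPM at E14.5, 212, 186 and 191 at P3, 281, 281 and 291 at P10, 307, 331 and 295 at P21, and 187, 317 and 269 at P56. Its P21 libraries lay above all E14.5 libraries (log2 change 0.91 ± 0.16 SE, adjusted p = 0.00178), and its P56 libraries ran between 187 and 317 CPM. Ctsb, the cathepsin with the highest level per kilobase of exon averaged over the 15 libraries (Ctss was above it at P21 and P56), had 8698, 9485 and 9510 CPM at E14.5, 10129, 9845 and 8740 at P3, 10083, 11514 and 11140 at P10, 12591, 11781 and 10997 at P21, and 10857, 12934 and 14519 at P56. Its change at P21 against E14.5 was 0.35 ± 0.11 (log2, SE, adjusted p = 0.0476). That call ended without a scaling factor and without any 1 of 12 libraries (adjusted p 0.0578 to 0.164). Those were all 3 libraries of each of E14.5, P3 and P10, P21 replicates 1 and 2, and P56 replicate 2. Ctsl had 939, 790 and 770 CPM at E14.5, 1192, 1003 and 1006 at P3, 1133, 1306 and 1259 at P10, 928, 1292 and 925 at P21, and 864, 816 and 855 at P56, and was called in no comparison. Ctsz was called in none either, with 1309 ± 143 CPM at P21 and 1081 ± 44.5 at E14.5 (SD, n = 3 each).

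Lyz2, lysozyme M, which cuts bacterial cell walls, had the highest level per kilobase of exon of all 52 members from P3 onwards (Ctsb was above it at E14.5) and the largest change at P21 against E14.5. It had 1634, 1732 and 1809 CPM at E14.5, 4881, 3579 and 4004 at P3, 6455, 9702 and 7932 at P10, 11987, 13740 and 11026 at P21, and 22095, 20317 and 27003 at P56. No age overlapped the next. At P21 its mean was 12251 CPM against 1725 at E14.5, a log2 change of 2.83 ± 0.17 (SE, adjusted p = 1.21e-07). Lyz2 is also abundant in monocytes and neutrophils. In CPM of the total, the sum of 4 monocyte markers lay between 18 and 35.8 at E14.5, 15.8 and 47.7 at P3, 21.3 and 55.1 at P10, 77.4 and 141 at P21, and 52.3 and 460 at P56. That of 8 neutrophil markers lay between 0.397 and 1.8 at E14.5, 0.0934 and 215 at P3, 0.915 and 22 at P10, 0.0952 and 2.5 at P21, and 0.0461 and 1.23 at P56. Of the monocyte markers 1 was at 0 in all libraries of P10 and 1 in those of P56, and the neutrophil markers at 0 throughout an age numbered 2 for E14.5, 0 for P3, 3 for P10, 1 for P21 and 4 for P56. The part of such cells in the Lyz2 results was not tested. Reads of the paralog Lyz1 came to 0.116% of those of Lyz2, and the rule for reads shared by both is not given in the sources used here.

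Among the other proteases, Lgmn, an asparaginyl endopeptidase that activates cathepsins, had 1506, 1834 and 1993 CPM at E14.5, 2694, 2633 and 2412 at P3, 2962, 2973 and 2710 at P10, 2823, 2720 and 2604 at P21, and 2237, 2367 and 2367 at P56. Its later libraries all lay above E14.5, and the P56 libraries were the lowest after birth. Lgmn was higher at P21 than at E14.5 by 0.61 ± 0.10 (log2, SE, adjusted p = 0.00124), a call that ended without a scaling factor. Ctsa, a serine carboxypeptidase that shields neuraminidase and beta-galactosidase, averaged 2116 ± 256 CPM at P21 and 1544 ± 137 at E14.5 (SD, n = 3 each; log2 change 0.45 ± 0.13 SE, adjusted p = 0.0408). That call ended without a scaling factor and without any 1 of 11 libraries (adjusted p 0.0504 to 0.156). Those were all 3 at each of E14.5 and P3, P10 and P21 replicates 1 and 2, and P56 replicate 3. Ctsa also shares 495 exon bases with Pltp on the other strand (GENCODE M21), a gene with 229462 counts over all libraries against 667681 for Ctsa. Ctsd, the main aspartic protease, had 1666, 2056 and 2121 CPM at E14.5, 2594, 2106 and 2365 at P3, 2164, 2700 and 2882 at P10, 2144, 2129 and 1918 at P21, and 2646, 2310 and 3753 at P56. Ctsd overlapped between P21 and E14.5 (adjusted p = 0.815). Tpp1, a tripeptidyl peptidase, was at 623 ± 66.2 CPM at P21 and 618 ± 8.27 at E14.5 (SD, n = 3 each).

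**Figure D3:**
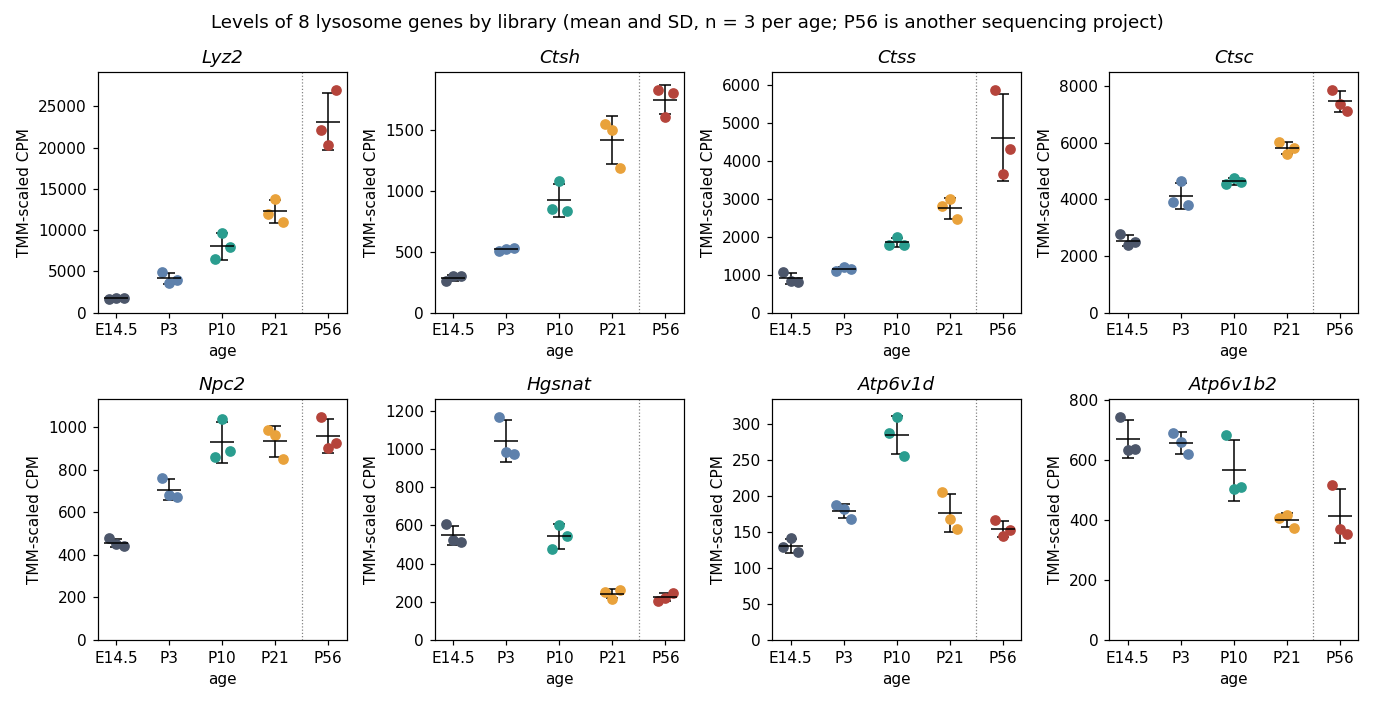
TMM-scaled CPM (y axes from 0) of 8 lysosome genes by age (x axis). Points are single libraries, bar and whiskers are mean and SD (n = 3 per age), and the dotted line marks the change of sequencing project before P56. Lyz2, Ctsh, Ctss and Ctsc are higher at each later age, Npc2 levels off from P10, Hgsnat peaks at P3, Atp6v1d peaks at P10, and Atp6v1b2 is lower at P21 and P56 than at E14.5.

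Enzymes of one route, the breakdown of heparan sulfate, moved in different directions. Hgsnat, the membrane enzyme that acetylates the chain end before it can be cut, had 607, 525 and 515 CPM at E14.5, 1169, 987 and 975 at P3, 475, 605 and 547 at P10, 249, 215 and 262 at P21, and 205, 222 and 246 at P56. It was above both neighbouring ages at P3, and all P21 and P56 libraries lay below all younger ones. At P21 Hgsnat averaged 242 CPM against 549 at E14.5 (log2 change −1.18 ± 0.13 SE, adjusted p = 4.19e-05). Sgsh, the sulfatase that acts just before Hgsnat, had 16.6, 20.6 and 19.5 CPM at E14.5, 41.8, 28.9 and 39.7 at P3, 55.4, 52.1 and 61 at P10, 47.5, 43.7 and 46.9 at P21, and 47.4, 59.6 and 61.4 at P56. All postnatal Sgsh libraries lay above all E14.5 libraries, and P21 exceeded E14.5 by 1.28 ± 0.19 (log2, SE, adjusted p = 0.000542). Ids, the X-linked iduronate sulfatase, averaged 64 ± 19.6 CPM at P21 and 29 ± 1.89 at E14.5 (SD, n = 3 each; log2 change 1.14 ± 0.31 SE, adjusted p = 0.0288). The Ids call ended without any E14.5 library, without P21 replicate 1 or 3 (adjusted p 0.0639 to 0.103), and without a scaling factor. Naglu, which removes the sugar that Hgsnat has acetylated, averaged 71.9 ± 8.78 CPM at E14.5, 120 ± 11 at P3 and 80.8 ± 14.3 at P21 (SD, n = 3 each). Naglu was called in the test of any difference (adjusted p = 0.0434) but in no comparison, and that call ended without any 1 of 10 libraries (adjusted p 0.0528 to 0.118). Those were all 3 at each of E14.5 and P3, P10 replicates 1 and 3, and P21 replicates 1 and 2.

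Most other sugar-chain enzymes passed no test. Idua, Gusb, Glb1, Gaa, Gla, Hexa, Man2b1 and Manba were called in no comparison, with log2 changes between −0.42 for Gla and 0.41 for Man2b1 at P21 against E14.5. Hexa, a chain of beta-hexosaminidase, averaged 1510 CPM at P21 against 1168 at E14.5 (log2 change 0.37 ± 0.12 SE, adjusted p = 0.0528). Without a scaling factor Gusb, beta-glucuronidase, was called lower there (−0.66 ± 0.14 SE, adjusted p = 0.00498), with 564 ± 53 scaled CPM at P21 and 718 ± 82.5 at E14.5 (SD, n = 3 each). Gla, alpha-galactosidase A, had the widest relative spread of any member within an age, at 51.1, 10 and 19 CPM in the P21 libraries, and the highest of these exceeded every E14.5 library (32.6, 34.6 and 39.8 CPM). Over this role the median log2 change at P21 against E14.5 was 0.03, or −0.28 without a scaling factor.

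Lipid handling genes were higher at P21 than at E14.5 in 4 of 7 cases, against 7.81% of all genes. With TMM scaling none of the 7 overlapped between these ages, while 33.4% of all genes tested did not overlap. In CPM of the total, Npc1, Psap, Smpd1 and Ppt1 did overlap. All 7 log2 changes were positive with and without a scaling factor, with medians of 0.82 and 0.52. Npc2, the soluble protein that hands cholesterol to Npc1, had 477, 451 and 441 CPM at E14.5, 762, 683 and 671 at P3, 858, 1039 and 887 at P10, 986, 964 and 849 at P21, and 1048, 902 and 924 at P56. It was higher at P3 than at E14.5 and the libraries from P10 onwards overlapped. P21 exceeded E14.5 by 1.03 ± 0.11 (log2, SE, adjusted p = 2.83e-05). Asah1, acid ceramidase, had 883, 770 and 760 CPM at E14.5, 808, 847 and 787 at P3, 1166, 1263 and 1152 at P10, 1262, 1478 and 1087 at P21, and 1272, 1447 and 1640 at P56. E14.5 and P3 overlapped for Asah1 and all later libraries lay above both, with a log2 change of 0.67 ± 0.12 at P21 against E14.5 (SE, adjusted p = 0.00284). Lipa, the acid lipase that frees cholesterol, averaged 562 ± 64.3 CPM at P21 and 302 ± 34.7 at E14.5 (SD, n = 3 each; log2 change 0.90 ± 0.19 SE, adjusted p = 0.0071). Npc1, the membrane cholesterol transporter, averaged 76.3 ± 23.3 CPM at P21 and 41.1 ± 2.05 at E14.5 (SD, n = 3 each; log2 change 0.89 ± 0.22 SE, adjusted p = 0.0156). Npc1 shares 511 exon bases with Rmc1 on the other strand (GENCODE M21), a gene with 12775 counts over all libraries against 20974 for Npc1. The Npc1 call ended without E14.5 replicate 2 or 3 or P21 replicate 2 (adjusted p 0.0593 to 0.0768), and without a scaling factor. Psap, the saposin precursor, was not called, with 1153, 1663 and 2628 CPM in the P21 libraries and 1131, 891 and 1061 CPM in the E14.5 libraries (adjusted p = 0.101). Smpd1, acid sphingomyelinase (log2 change 0.56 ± 0.21 SE, adjusted p = 0.101), and Ppt1, a thioesterase (0.42 ± 0.14 SE, adjusted p = 0.0591), did not pass either.

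Of the 6 lysosomal membrane proteins, 3 were higher at P21 than at E14.5, against 7.81% of all genes. Scarb2, which escorts glucocerebrosidase to lysosomes, had 109, 116 and 105 CPM at E14.5, 166, 176 and 158 at P3, 174, 162 and 179 at P10, 199, 170 and 202 at P21, and 181, 326 and 229 at P56. All postnatal Scarb2 libraries exceeded all E14.5 libraries, and P21 was higher than E14.5 by 0.79 ± 0.17 (log2, SE, adjusted p = 0.00769). The Scarb2 call ended without a scaling factor. Cd68, the macrophage marker macrosialin, had 1011, 707 and 752 CPM at E14.5, 1436, 1133 and 1150 at P3, 1187, 1332 and 1465 at P10, 1336, 1302 and 1194 at P21, and 1265, 1362 and 1617 at P56. E14.5 was the lowest age for Cd68 and the postnatal ages overlapped (P21 against E14.5: log2 change 0.63 ± 0.15 SE, adjusted p = 0.0132). The Cd68 call ended without E14.5 replicate 2 or 3 (adjusted p 0.0643 to 0.0709), and without a scaling factor. Lamp2, X-linked and needed for chaperone-mediated autophagy, averaged 858 ± 123 CPM at P21 and 650 ± 26.4 at E14.5 (SD, n = 3 each; log2 change 0.40 ± 0.12 SE, adjusted p = 0.0488). The Lamp2 call ended without a scaling factor and without any 1 of 12 libraries (adjusted p 0.0532 to 0.155). Those were all 3 at each of E14.5, P3 and P10, P21 replicates 2 and 3, and P56 replicate 3. Lamp1, the most used lysosome marker, was the flattest member, with 2281, 2105 and 2236 CPM at E14.5, 2456, 2222 and 2036 at P3, 1910, 2341 and 2446 at P10, 2285, 2086 and 2271 at P21, and 1929, 2570 and 2969 at P56. Its highest mean among the first 4 ages was 1.01-fold its lowest, and the ages overlapped. This flatness holds after TMM scaling. Without a scaling factor the log2 change of Lamp1 at P21 against E14.5 was −0.31 ± 0.13 (SE, adjusted p = 0.126). Laptm5, of haematopoietic cell lysosomes, and Mcoln1, a calcium channel, had log2 changes of 0.14 ± 0.12 and 0.34 ± 0.22 (SE) at P21 against E14.5 and were not called.

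Grn, progranulin, a secreted protein that also supports hydrolases inside lysosomes, had 2310, 2566 and 2631 CPM at E14.5, 3910, 3891 and 3547 at P3, 3087, 3319 and 3686 at P10, 3578, 3664 and 3206 at P21, and 3675, 4361 and 4281 at P56. Its E14.5 libraries lay below all others, and P21 exceeded E14.5 by 0.48 ± 0.10 (log2, SE, adjusted p = 0.00667), a call that ended without a scaling factor.

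Calls in the proton pump went in both directions with TMM scaling. At P21 against E14.5, 3 of its 12 subunits were higher and 1 was lower, against 7.81% and 4.37% of all genes. The 3 were Atp6v0b, Atp6v1d and Atp6ap1, and all 3 calls ended without a scaling factor. In that fit the called subunits were Atp6v1b2 and Atp6v1h, both lower, where 5.09% of all genes were higher and 10.2% lower. Of the V0 sector only Atp6v0b was called, with 434 ± 105 CPM at P21 and 280 ± 14 at E14.5 (SD, n = 3 each; log2 change 0.63 ± 0.17 SE, adjusted p = 0.0273). The Atp6v0b call ended without any E14.5 library, without P21 replicate 1 or 2 (adjusted p 0.0597 to 0.126), and without a scaling factor. Atp6v0a1, Atp6v0c and Atp6v0d1 were not called in any comparison. E14.5 replicate 1 was low for Atp6v0d1 (119, 261 and 254 CPM in the E14.5 libraries) and for Atp6v0a1 (211, 353 and 377 CPM).

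In the V1 sector, Atp6v1d, part of the central rotor, had 129, 141 and 122 CPM at E14.5, 187, 182 and 168 at P3, 288, 310 and 256 at P10, 206, 168 and 154 at P21, and 166, 144 and 153 at P56. The P10 libraries lay above those of every other age. Atp6v1e1, part of the stator, was called in the test of any difference (adjusted p = 0.044), with 354 ± 22.9 CPM at E14.5, 522 ± 41.5 at P10 and 427 ± 64.1 at P21 (SD, n = 3 each). That call ended without any 1 of 9 libraries, those of E14.5, P3 and P10 (adjusted p 0.0524 to 0.14). Atp6v1b2, the nucleotide-binding B subunit, averaged 400 ± 23.8 CPM at P21 and 671 ± 63.2 at E14.5 (SD, n = 3 each; log2 change −0.75 ± 0.16 SE, adjusted p = 0.00621). Without a scaling factor Atp6v1h, the regulatory H subunit, was also called lower at P21 than at E14.5 (−0.67 ± 0.15 SE, adjusted p = 0.0072). Atp6v1a and Atp6v1c1 had TMM-scaled log2 changes of 0.11 ± 0.19 and 0.01 ± 0.14 (SE). Of the accessory subunits, X-linked Atp6ap1 averaged 764 ± 36.6 CPM at P21 and 509 ± 7.6 at E14.5 (SD, n = 3 each; log2 change 0.59 ± 0.09 SE, adjusted p = 0.000721), a call that ended without a scaling factor. Atp6ap2, the prorenin receptor, was not called, at 438 ± 58.8 CPM at P21 and 401 ± 23 at E14.5 (SD, n = 3 each).

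Osteoclasts, which use the same pump to acidify bone, were one possible admixture of a dural sort. In CPM of the total, the sum of 7 osteoclast markers lay between 131 and 601 at E14.5, 885 and 1390 at P3, 924 and 1910 at P10, 189 and 273 at P21, and 80.9 and 403 at P56, and the marker Calcr was at 0 in all P3 and P10 libraries. That of 7 mast cell markers lay between 1.91 and 119 at E14.5, 628 and 1740 at P3, 172 and 431 at P10, 3.95 and 10.8 at P21, and 10.2 and 283 at P56. Of these, 2 were at 0 in all P21 libraries. That of 6 fibroblast markers, none of which was at 0 throughout an age, lay between 60.5 and 695 at E14.5, 530 and 2450 at P3, 653 and 2710 at P10, 983 and 1840 at P21, and 82.1 and 137 at P56. The mast cell sum was highest at P3, where Hgsnat peaked, and the osteoclast sum reached its highest value at P10, where Atp6v1d peaked. Their part in either result was not tested.

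The first step had the most called members. At P3 against E14.5, 9 of 52 members were higher, while 1.67% of all genes were called higher and 0.388% lower. None of the 52 was lower by edgeR, DESeq2 or limma voom, and none had an unadjusted p under 0.05 in that direction. The members' median log2 change was 0.28, against 0.01 for all genes tested. The largest change was that of Lyz2, at 4155 CPM at P3 against 1725 at E14.5 (log2 change 1.27 ± 0.16 SE, adjusted p = 0.000819). Sgsh rose by 0.96 ± 0.19 (adjusted p = 0.0176), Hgsnat by 0.93 ± 0.13 (adjusted p = 0.00178) and Ctsh by 0.86 ± 0.13 (adjusted p = 0.00314), each as log2 change ± SE. Ctsc rose by 0.70 ± 0.09 (adjusted p = 0.00117), Npc2 by 0.63 ± 0.11 (adjusted p = 0.00795) and Grn by 0.60 ± 0.10 (adjusted p = 0.00755). Lgmn rose by 0.54 ± 0.10 (adjusted p = 0.0136) and Atp6ap1 by 0.41 ± 0.09 (adjusted p = 0.0358). The Lgmn call ended without E14.5 replicate 2 or P3 replicate 1 or 2 (adjusted p 0.0566 to 0.0661). The Sgsh call ended without any E14.5 library or P3 replicate 1 or 3 (0.0586 to 0.0868). That of Atp6ap1 ended without any E14.5 or P3 library or P10 replicate 2 (0.0536 to 0.156), and without a scaling factor. With E14.5 replicate 3 as the only E14.5 library, edgeR called 0 of 52 members and 21 of 17596 genes higher at P3, and 17 members had an unadjusted p under 0.05 in that direction. In that fit, whose lone E14.5 library is assumed to vary like the other groups, the log2 changes of the 9 members were 0.39 to 1.22.

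At P10 against P3, 3 members were higher and 1 was lower, against 0.341% and 0.0613% of all genes. Lyz2 had a log2 change of 0.95 ± 0.16 (SE, adjusted p = 0.0159), Ctsh of 0.83 ± 0.13 (adjusted p = 0.00991) and Atp6v1d of 0.67 ± 0.13 (adjusted p = 0.0458). Hgsnat fell by 0.94 ± 0.13 (adjusted p = 0.0055). The Ctsh call ended without any P3 library or P10 replicate 2 (adjusted p 0.0556 to 0.078), and the Lyz2 call without P3 or P10 replicate 2 or 3 (0.054 to 0.128). The Atp6v1d call ended without a scaling factor and without any 1 of 12 libraries (0.0527 to 0.229). Those were all 3 at each of E14.5, P3 and P10, P21 replicate 2, and P56 replicates 2 and 3.

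At P21 against P10, 1 member was higher and 2 were lower, against 0.96% and 0.184% of all genes. Ctsh rose by 0.62 ± 0.13 (log2, SE, adjusted p = 0.034), while Hgsnat fell by 1.16 ± 0.13 (adjusted p = 0.000795) and Atp6v1d fell by 0.69 ± 0.13 (adjusted p = 0.0257). The Ctsh call ended without a scaling factor and without any 1 of 9 libraries (adjusted p 0.0512 to 0.17): all 3 at P3, E14.5 replicates 2 and 3, P10 replicates 1 and 3, and P21 replicates 1 and 2. The Atp6v1d call ended without P10 replicate 1 or 2 or P21 replicate 2 or 3 (0.0637 to 0.118).

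At P56 against P21, 1 member was higher and none was lower, against 0.102% and 0.17% of all genes. By edgeR, 3 members had an unadjusted p under 0.05 in the lower direction, and DESeq2 and limma voom called none. Lyz2 had 23138 CPM at P56 and 12251 at P21 (log2 change 0.92 ± 0.16 SE, adjusted p = 0.0269), a difference that cannot be told apart from the change of sequencing project. The call ended without E14.5 replicate 2, P21 replicate 1 or 3, or P56 replicate 3 (adjusted p 0.0556 to 0.0825).

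Over the whole span within one project, P21 against E14.5, 21 of 52 members were higher and 2 were lower, against 7.81% and 4.37% of all genes. The members' median log2 change was 0.36, against −0.01 for all genes. Of the 21, 12 were called in no single step up to P21, and 8 had already been higher at P3. The P21 libraries had TMM factors of 0.9024 to 0.9439, against 1.123 to 1.158 for E14.5, so the direction of small changes depended on the scaling. With no scaling factor the median of all genes was −0.32, 9 members were called higher and 4 lower, against 5.09% and 10.2% of all genes in that fit, and 29 members had a positive change in place of 42. The 9 were Ctsc, Ctsf, Ctsh, Ctss, Lyz2, Sgsh, Npc2, Lipa and Asah1, and the 4 were Hgsnat, Atp6v1b2, Gusb and Atp6v1h. Without E14.5 replicate 2 or 3, 13 members were called higher, against 4.79% and 5.27% of all genes in these fits. With E14.5 replicate 3 as the only E14.5 library, Ctsc, Ctsh, Ctss, Lyz2 and Npc2 were called higher and Hgsnat lower, 6 members in all, against 1.73% of all genes higher and 0.398% lower. In that fit the X-linked members had log2 changes of 1.06 for Ids (adjusted p = 0.422), 0.58 for Atp6ap1 (0.0769) and 0.47 for Lamp2 (0.342). The Atp6v1d call at P21 against E14.5 (0.43 ± 0.13 SE, adjusted p = 0.0471) ended without any 1 of 13 libraries (adjusted p 0.0554 to 0.194), that is, all but P21 replicate 3 and P56 replicate 1. Ctsc, with 5819 CPM at P21 and 2548 at E14.5, had a log2 change of 1.19 ± 0.09 (SE, adjusted p = 1.56e-06).

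**Figure D4:**
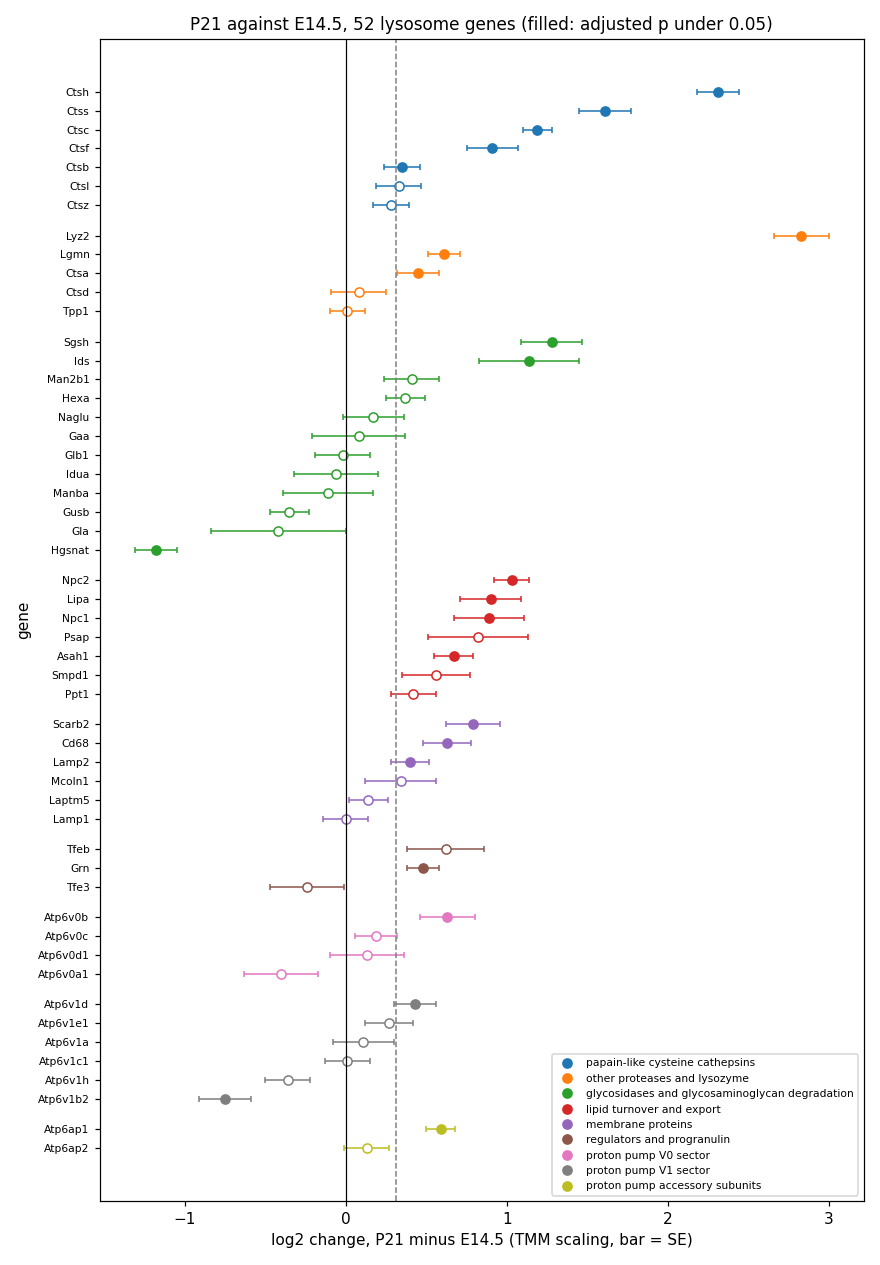
Log2 change at P21 minus E14.5 (x axis, TMM scaling, whiskers are SE) of the 52 lysosome genes (y axis), coloured by role. Filled points passed an adjusted p of 0.05 in edgeR's quasi-likelihood test. The dashed line at 0.31 is the difference between the medians of all genes with TMM (−0.01) and without a scaling factor (−0.32). A gene on that line has a change near 0 when no scaling factor is used. Lyz2 (2.83) and Ctsh (2.31) lie farthest right and Hgsnat (−1.18) farthest left.

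In all, 25 members were called in a comparison or in the test of any difference and 27 in none. The share of all genes called over these tests together was not computed, so the 25 have no background to compare with. Levels can be set between genes only per length. Per kilobase of GENCODE M21 exon, Lyz2 had 14628 CPM of the total at P56, against 1495 at E14.5. Ctsb had 1755 at P56 against 1740 at E14.5, and Ctss had 2841 at P56 against 757 at E14.5, so that Ctsb was above Ctss at E14.5 and below it at P56. The lowest were Tfeb, Npc1 and Mcoln1, with means over the 15 libraries of 5.21, 5.48 and 8.05. On this scale Ctsb was above Lyz2 at E14.5, and Lyz2 was above all other members from P3 onwards.

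A further 57 lysosome genes outside the set were tested in the same fit. At P21 against E14.5, 17 were higher and 2 were lower, against 7.81% and 4.37% of all genes. Their median log2 change was 0.30 with TMM scaling. The median of all genes was −0.01 with it and −0.32 without a scaling factor, so the median of the 57 depends on the scaling. Of the 17 further hydrolases and activators, 11 were higher, among them Arsa, Neu1, Fuca1, Aga, Gm2a, Ctso, Dpp7, Scpep1 and Pla2g15. Of the cystatins, which inhibit cathepsins, Cst3 was higher at each step from E14.5 to P21 and reached 6287 CPM at P21 against 1575 at E14.5 (log2 change 2.0 ± 0.12 SE, adjusted p = 1.44e-07). Cst7 had 0 counts in the P21 libraries against 191 over the E14.5 libraries, at least 60.4-fold lower against a floor of 3 counts over an age. The E14.5 libraries had 3.46, 4.96 and 0.119 CPM of the total of Cst7, so the third was close to P21. Of 13 further membrane proteins 1 was higher, Cd63, of 5 further pump subunits 1, Atp6v1f, and of 6 enzyme delivery genes 1, Gnptg. Of 13 nutrient sensing and MiT family genes, Lamtor1 and Lamtor4 were higher and Flcn was lower. At P3 against E14.5, 7 of the 57 were higher, against 1.67% of all genes: Fuca1, Scpep1, Pla2g15, Cd63, Atp6v1f, Lamtor4 and Cst3. At P10 against P3, 2 of the 57 were higher, Cst3 among them, against 0.341% of all genes. At P21 against P10 Cst3 was higher, against 0.96% of all genes, and at P56 against P21 edgeR called none in either direction. In that last step 4 had an unadjusted p under 0.05 higher and 3 lower, and DESeq2 called 2 higher and limma voom 1.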

How the data were processed

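Bulk RNA-seq of sorted dural macrophages was used as deposited: raw read counts per gene symbol, not normalized by the authors, in 15 libraries (17550170 to 30614583 counts each). Per the submitters' processing notes the tools were bcl2fastq 2.18, STAR 2.7.8a and featureCounts 2.0.2. The genome build, annotation, strand setting and rule for multi-mapping reads are not given in the sources used here, so reads shared by overlapping genes (16 members share exon bases with another gene in GENCODE M21) are uncertain. Per the labels' protocols, a SMARTer low-input kit and Nextera XT were used, without molecular identifiers, so floors cover counting error only.

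Counts were analysed in R 4.3.3 with edgeR 4.0.16: filterByExpr by age, TMM factors, robust quasi-likelihood fit with age as the only term over all 15 libraries (14683 genes), and Benjamini-Hochberg adjustment over all genes. The test of any difference used the 12 libraries of one project (14287 genes). The code was tested on simulated data. SE is the absolute log2 change divided by the root of F. Levels are means ± SD of 3 libraries. Alternatives used DESeq2 1.42.0, limma 3.58.1, other factors and filters, subsets of libraries and a replicate block. The members and lists were chosen with earlier results of these data known. All members are accounted for, each called one is named with its change, and values of every library are given for the 12 with the smallest p of any difference and for the best known of each role. Some genes outside the set are counted in their lists, but their values are not reported here. Promoters are RefSeq windows (GRCm38.p6); of 52 members, 44 matched, and Asah1, Atp6v1b2, Atp6v1c1, Atp6v1h, Ctsb, Ctsh, Hgsnat and Npc1 did not.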

Additional observations from a re-analysis of the deposited data

How the results depend on the processing

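Of 40 called changes of members in the 5 comparisons, 19 were kept under every alternative other than E14.5 replicate 3 alone (8 with it) and 23 without each library in turn, and none reversed. Of the 23 calls in the test of any difference, 16 were kept under every such alternative. With DESeq2, members called higher numbered 14 at P3 against E14.5, 6 at P10 against P3 (2 lower), 5 at P21 against P10 and 6 at P56 against P21. DESeq2 also called more of all genes higher in these comparisons: 4.19%, 1.25% (1.03% lower), 3.38% and 1.42%. The shares by edgeR were 1.67%, 0.341% (0.0613% lower), 0.96% and 0.102%. At P21 against P10, 0 were higher with upper quartile factors, no factor or only both ages in the fit (then 1 lower), 3 with no filter or limma voom, and 2 in the 12 libraries of one project. At P56 against P21, 2 were higher with no filter or limma voom and 0 with only both ages. At P21 against E14.5, no factor gave 9 higher and 4 lower. With E14.5 replicate 3 alone at E14.5, added after seeing the data, 0 were higher at P3, 5 higher and 1 lower at P21, and 9 differed at all, with fewer samples. Leaving out 1 library gave 0 to 5 members higher at P10 against P3, where 0.121% to 0.543% of all genes were higher. At P21 against P10 it gave 0 to 2 higher and 1 to 3 lower, against 0.174% to 1.62% and 0.0193% to 0.486% of all genes. At P56 against P21 it gave 0 to 2 higher, against 0.0576% to 0.384% of all genes. At P21 against E14.5 it gave 13 to 22 higher, against 4.79% to 7.84% of all genes. The causes of these moves were not tested. Same-numbered libraries did not visibly deviate together (correlations −0.054 to 0.063, 0 of 18 above 0.1), and differently numbered ones ran from −0.063 to 0.064. With 3 libraries per age, this check cannot exclude that the numbers pair samples. The replicate block gave 2 higher at P21 against P10. Members had at least 192 counts in every library.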

Other observations

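Within an age, the members differed in how closely the 3 libraries agreed. The median SD over mean was 9.32% at E14.5 and 8.23% at P3, 11.9% at both P10 and P21, and 13.6% at P56. It exceeded 30% for 1 member at E14.5 (Atp6v0d1, 37.9%), 0 at P3, 1 at P10 (Idua, 31.2%), 5 at P21 and 6 at P56. The widest were Gla at P21 (81%), Ids at P56 (47.4%), Gaa at P56 (44%) and Psap at P21 (41.3%), which were picked for their spread. P56 replicate 1 was the lowest of its age for 29 of 52 members and P56 replicate 3 for 7. P3 replicate 1 was the highest of its age for 31 members and P3 replicate 3 for 8.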
